A study of Mus musculus with 9 samples.

Results

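The genes examined were 10 negative or modulatory regulators of NF-κB, which were the IκB family (Nfkbia, Nfkbib, Nfkbie, Bcl3, Nfkbiz and Nfkbid) and the ubiquitin-editing genes (Tnfaip3, Tnip1, Tnip3 and Cyld). They were chosen by name for their known roles, with earlier results of these data known, and all 10 were found by symbol among the 54532 genes of the table. All 10 also passed the filter on low values, which left 11585 genes for testing. The RNA-seq libraries came from RAW264.7 cells, a mouse macrophage line that the labels give as wild type and derived from ascites. There were 3 groups of 3 libraries. Control cells received no treatment, LPS cells received lipopolysaccharide (LPS, a bacterial cell wall component that activates Toll-like receptor signaling) at 1 μg/ml for 6 h, and LPS + G-CDs cells received LPS at 1 μg/ml and Glycyrrhiza-derived carbon dots (G-CDs) at 400 μg/ml for 6 h. For the LPS + G-CDs libraries the treatment label names LPS alone, and the carbon dots come from the sample titles and the design. Cells given G-CDs without LPS were not analysed here. All results come from 1 cell line, and no source used here says whether the libraries of a group came from separate cultures, so the p-values measure the spread between these libraries, which may be technical.

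NF-κB dimers are held in the cytoplasm by classical IκB proteins. When Toll-like receptors are engaged, the IκB kinase complex phosphorylates these inhibitors, which are then ubiquitinated and degraded, and the freed dimers enter the nucleus and switch on inflammatory genes. Among the genes switched on are the IκB genes themselves and Tnfaip3, which encodes A20, so that the pathway makes its own brakes, and a group of nuclear IκB proteins further tunes which target genes are transcribed. In macrophages this feedback limits how long and how strongly cytokines are made.

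The libraries held from 14752400 to 17312255 reads assigned to genes, and the members were counted with at least 135 reads in any library. All 8 macrophage markers examined reached 1 FPKM in every library, where FPKM is fragments scaled by gene length and library size. The library size behind the deposited values was not the total of reads assigned to genes. It was 1.108, 1.14 and 1.119 times that total in the control libraries and 0.929, 0.936 and 0.934 times it with LPS. With LPS + G-CDs it was 0.98, 0.96 and 0.88 times that total. Fold changes between groups include this scaling, and its basis is not given in the sources used here. Markers of T cells, B cells, fibroblasts, epithelial cells and endothelial cells summed to at most 1.21 FPKM per list in any library. Among the LPS + G-CDs libraries, replicates 2 and 3 differed from the LPS libraries in a way that followed gene length. In the tested genes of 9131 bases or more, the median of log2(FPKM + 1) minus the LPS mean was 0.0 in replicate 1, -0.33 in replicate 2 and -0.64 in replicate 3, whereas in genes of 1569 to 2351 bases it was -0.02, 0.24 and 0.52. Control replicate 3 showed a like trend, at -0.47 in the longest and 0.29 in the shorter of these classes, and the other 2 control libraries did not exceed 0.1 in size in either. Length-class values are given below beside all members but Nfkbie.

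Matches to the NF-κB consensus, the decamer bound by NF-κB dimers, were searched on both strands of the RefSeq promoters (build GRCm38.p6, 250 bases before to 50 bases after the transcription start). At least 1 match was found in 8 of the 9 members with a promoter entry, against 1388 of 27025 genes (5.14%) and 1480 of 32851 promoters (4.51%). Stretches of 5 promoters are shown because they represent the different behaviors described below, each with 160 bases before the start and the first 20 bases of the transcript, and with matches in capitals. Tnfaip3 and Nfkbia rose with LPS, and with G-CDs Tnfaip3 was called lower and Nfkbia was not. The exact permutation test of their difference below cannot give a p under 0.1, so it cannot decide whether they differ. Tnip1 held overlapping matches, Cyld held a match without a rise, and Nfkbib rose without a match in the window searched.
Tnfaip3, chr10:19015391-19015570, minus strand: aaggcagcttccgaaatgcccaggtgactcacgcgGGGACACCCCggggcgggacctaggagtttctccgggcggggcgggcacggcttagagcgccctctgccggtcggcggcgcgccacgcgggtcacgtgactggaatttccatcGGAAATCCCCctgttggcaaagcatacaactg
Nfkbia, chr12:55492628-55492807, minus strand: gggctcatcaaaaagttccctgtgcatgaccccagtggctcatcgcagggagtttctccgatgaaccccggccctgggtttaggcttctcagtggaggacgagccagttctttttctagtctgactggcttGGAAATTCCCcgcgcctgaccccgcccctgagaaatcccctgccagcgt
Tnip1, chr11:54962921-54963100, minus strand: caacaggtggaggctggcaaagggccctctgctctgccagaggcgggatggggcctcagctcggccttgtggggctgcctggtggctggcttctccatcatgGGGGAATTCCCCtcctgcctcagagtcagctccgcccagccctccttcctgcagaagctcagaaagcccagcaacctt
Cyld, chr8:88696868-88697047, plus strand: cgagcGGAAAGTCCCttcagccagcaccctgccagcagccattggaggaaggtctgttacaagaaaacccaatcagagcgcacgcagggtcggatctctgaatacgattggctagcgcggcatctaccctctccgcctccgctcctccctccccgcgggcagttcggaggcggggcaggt
Nfkbib, chr7:28766625-28766804, minus strand: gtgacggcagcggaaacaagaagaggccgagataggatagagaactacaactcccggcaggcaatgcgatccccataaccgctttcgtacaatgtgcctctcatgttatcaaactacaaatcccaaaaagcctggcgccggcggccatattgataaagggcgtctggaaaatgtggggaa
In Tnfaip3 the 2 matches began 125 and 12 bases before the start shown, which is 1 of 2 annotated starts, and the promoter of the other held 0 matches. The Nfkbia match began 29 bases before the start. Tnip1 held 3 overlapping matches that began 58, 57 and 56 bases before the start, and the Cyld match began 155 bases before it. Among the members not shown, matches began 106 bases before the start in Nfkbie, 54 bases before it in Tnip3, and 226 and 181 bases before 1 of the 3 annotated starts of Nfkbid. In Bcl3 the match lay 2 bases after the first base of the transcript. Nfkbiz was not searched. The windows of Nfkbib (28766595 to 28766894) and Tnip3 (65590148 to 65590447) did not include the gene starts of the deposited coordinates, at 28767512 and 65525313. Those starts were not searched. A match describes the letters of a window and does not show binding.

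**Figure D1:**
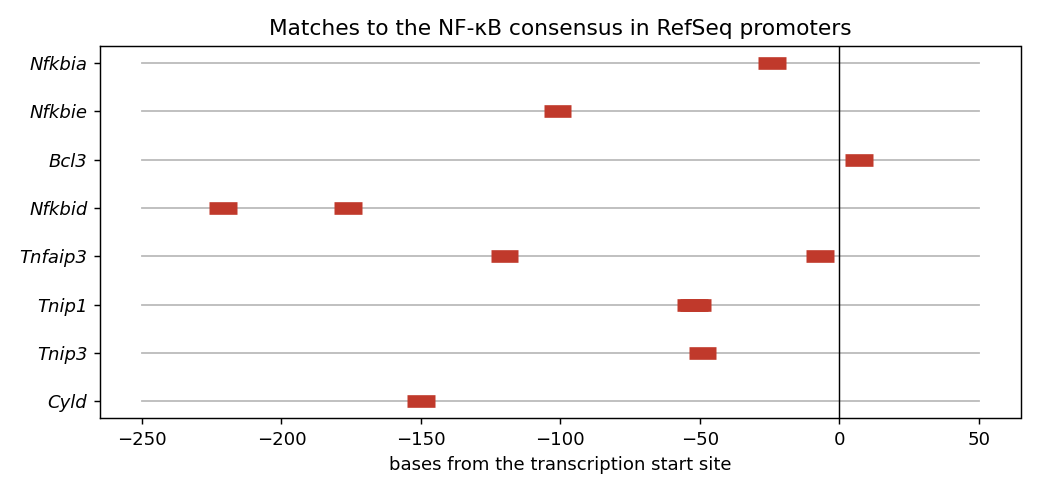
Positions of NF-κB consensus matches (red boxes, drawn to scale) in the 300-base RefSeq promoters of the 8 members with a match, with the x axis in bases from the transcription start. Matches lie between 226 bases before the start (Nfkbid) and just after it (Bcl3), and Nfkbib is not drawn because it held 0 matches.

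To examine how LPS altered these regulators, LPS libraries were first compared with control. Of the 10 members, 9 rose and 0 fell at an adjusted p under 0.05 (limma on log2(FPKM + 1), Benjamini-Hochberg adjustment over all tested genes), when 15.8% of all tested genes were called higher and 15.6% lower. At an unadjusted p under 0.05, 1 member was lower (Cyld), against 20.8% of all tested genes, and voom on recovered reads called 9 higher and 0 lower. The median log2 fold change was 2.14 over the members and 0.016 over all tested genes. Nfkbiz, which encodes the nuclear IκBζ, rose most among them, followed by Tnfaip3 and Nfkbia. The direction and the call of these 9 genes held in all 17 alternatives run for each of them.

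**Figure D2:**
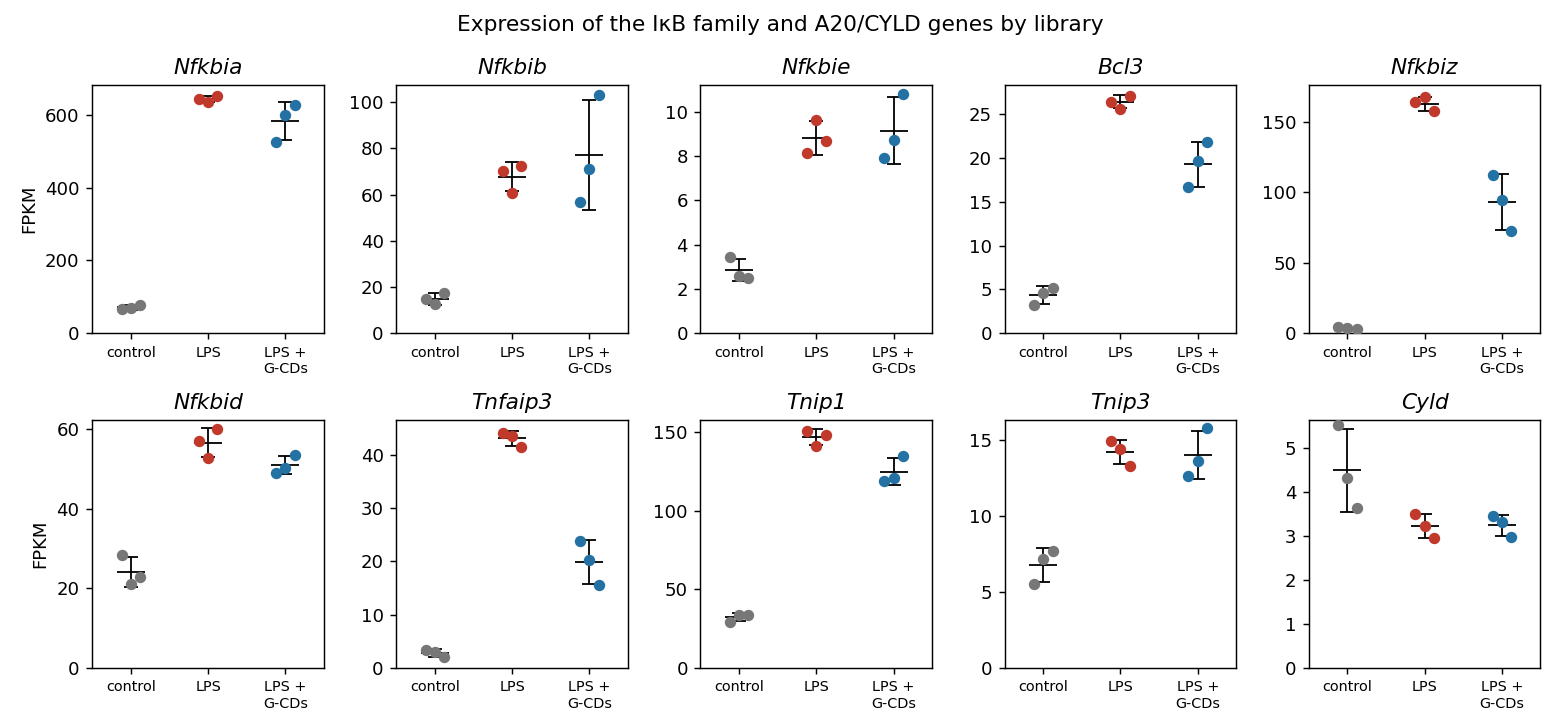
FPKM of the 10 members in each library (points, 3 per group, replicates 1 to 3 from left to right), with horizontal bars for the mean and error bars for the SD; each panel has its own axis from 0. With the exception of Cyld, every LPS library lies above every control library. In Tnfaip3, Nfkbiz, Bcl3, Tnip1 and Nfkbia the LPS + G-CDs libraries lie between those of the other groups. How many of all tested genes show either pattern was not counted.

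The classical IκB proteins bind NF-κB dimers in the cytoplasm, and Nfkbia encodes IκBα, the one that is degraded and resynthesized fastest. Nfkbia (ENSMUSG00000021025, chr12:55489410-55492647, minus strand, GRCm38) was at 66.4, 67.8 and 77.9 FPKM in the control libraries and at 644, 635 and 653 FPKM in the LPS libraries. The groups were far apart, with an FPKM ratio of 9.11 and a log2 fold change of 3.17 ± 0.14 (SE, adjusted p = 5.5e-07, limma). By mean level per gene length Nfkbia was the most abundant member in all 3 groups, and its place among the 11585 tested genes moved from 669 in control to 52 with LPS.

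Nfkbib, which encodes IκBβ (chr7:28758251-28767512, minus strand), was at 14.7, 12.4 and 17.5 FPKM in control and at 70.2, 60.5 and 72.6 FPKM with LPS. No control library came near an LPS library, and the log2 fold change was 2.12 ± 0.22 (SE, adjusted p = 0.00011, limma). The rise came without a consensus match in the promoter window printed above. Its exons share 42 bases with Sirt2 and 314 with Ccer2 on the other strand, and whether the counting used strand is not given in the sources used here. Sirt2 had up to 911 reads in a library and a mean of 6.57 FPKM in control and 11.4 FPKM with LPS, and Ccer2 had at most 3 reads. The part of these overlaps in the Nfkbib value was not tested.

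Nfkbie, which encodes IκBε (chr17:45555703-45563169, plus strand), was at 3.45, 2.6 and 2.51 FPKM in control and at 8.13, 9.63 and 8.68 FPKM with LPS. This was the smallest rise of the classical group, with a log2 fold change of 1.35 ± 0.15 (SE, adjusted p = 0.00017, limma).

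The nuclear IκB proteins act on DNA-bound NF-κB rather than in the cytoplasm. Nfkbiz (chr16:55811375-55838899, minus strand) encodes IκBζ, which is required for a set of secondary response genes. It was at 3.95, 3.25 and 2.8 FPKM in control and at 164, 168 and 158 FPKM with LPS. The FPKM ratio of 48.9 was the highest of the members, and the log2 fold change of 5.25 ± 0.17 (SE, adjusted p = 7.6e-08, limma) ranked 25 among rises over all tested genes. Its share of the summed FPKM of the members went from 2.0% in control to 13.9% with LPS.

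Bcl3 (chr7:19808462-19822770, minus strand), whose product binds p50 and p52 homodimers, was at 3.19, 4.58 and 5.15 FPKM in control and at 26.4, 25.6 and 27.1 FPKM with LPS. The LPS mean was 26.4 ± 0.747 FPKM (SD, n = 3), and the log2 fold change was 2.39 ± 0.16 (SE, adjusted p = 7.8e-06, limma). Its exons share 161 bases with Gm16175 on the other strand, which had at most 4 reads in any library. Nfkbid (chr7:30421732-30428746, plus strand) encodes IκBNS. It was already at 28.3, 21.1 and 22.9 FPKM in control and reached 56.9, 52.7 and 60.1 FPKM with LPS. Its log2 fold change was smaller than those of the other nuclear genes, at 1.21 ± 0.13 (SE, adjusted p = 0.00017, limma), with no test of that difference.

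The ubiquitin-editing genes act upstream, on the ubiquitin chains that carry the signal to the IκB kinase. Tnfaip3 (ENSMUSG00000019850, chr10:19000910-19015657, minus strand) encodes A20, which edits these chains. It was at 3.37, 2.95 and 2.04 FPKM in control and at 44.2, 43.6 and 41.5 FPKM with LPS. In control Tnfaip3 had the lowest mean of the members, although its libraries overlapped those of Nfkbie next to it, and with LPS it was sixth. The log2 fold change was 3.56 ± 0.18 (SE, adjusted p = 1.3e-06, limma), and the FPKM ratio was 15.5.

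Tnip1 (chr11:54910785-54962917, minus strand) encodes ABIN-1, an adaptor that binds ubiquitin and A20. It was at 29.4, 33.5 and 33.6 FPKM in control and at 151, 141 and 148 FPKM with LPS, a log2 fold change of 2.16 ± 0.12 (SE, adjusted p = 2e-06, limma). Its relative Tnip3 (chr6:65525313-65634040, plus strand), which encodes ABIN-3, was at 5.51, 7.13 and 7.66 FPKM in control and at 14.9, 14.4 and 13.3 FPKM with LPS. The rise of Tnip3 was the smallest of those called, with a log2 fold change of 0.98 ± 0.14 (SE, adjusted p = 0.00077, limma).

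Cyld (chr8:88697028-88751945, plus strand), which encodes a deubiquitinase that removes the chains, was the exception. It was at 5.51, 4.31 and 3.64 FPKM in control and at 3.5, 3.23 and 2.95 FPKM with LPS. The LPS values were all below the control values, but the log2 fold change of -0.36 ± 0.14 (SE, 95% interval -0.69 to -0.04) had an adjusted p of 0.084 (limma). It passed with the replicate number as a block (adjusted p = 0.047), with the gene-length trend removed (-0.58, adjusted p = 0.013), with TPM scaling (-0.59, adjusted p = 0.045), with quantile normalization (-0.39, adjusted p = 0.05 after rounding) and without control replicate 3 (-0.48, adjusted p = 0.04). It did not pass in the other 11 of 16 alternatives, and without control replicate 1 it was -0.23 (adjusted p = 0.2). Cyld is 12576 bases long, and its length class had medians of -0.1, -0.09 and -0.47 in the 3 control libraries relative to the LPS mean, where Cyld itself was at 0.62, 0.33 and 0.14.

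**Figure D3:**
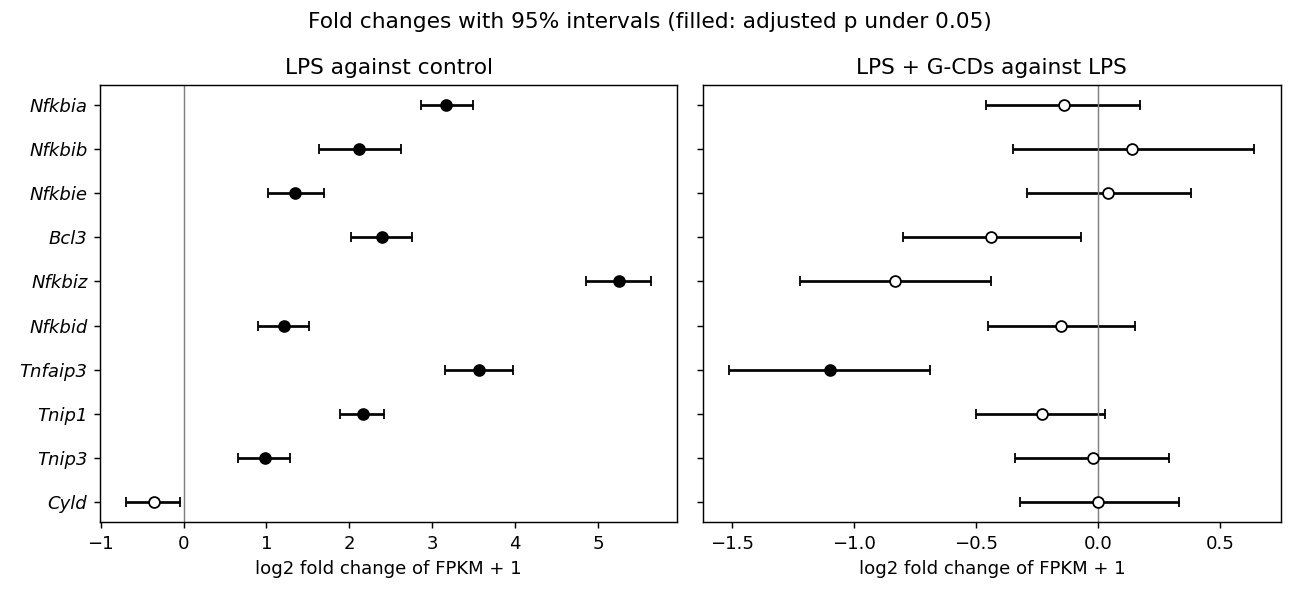
Log2 fold changes of FPKM + 1 for the 10 members (points) with 95% intervals (bars), LPS against control on the left and LPS + G-CDs against LPS on the right; the panels have different scales and filled points have an adjusted p under 0.05. All members but Cyld are filled on the left, whereas Tnfaip3 at -1.1 is the one filled point on the right.

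To examine the effect of G-CDs in LPS-treated cells, LPS + G-CDs libraries were compared with LPS libraries. Here 1 of the 10 members was called lower (Tnfaip3) and 0 higher at an adjusted p under 0.05 (limma), against 0.242% of all tested genes called lower and 0.25% higher. At an unadjusted p under 0.05, 3 members were lower (Tnfaip3, Nfkbiz and Bcl3) and 0 higher, against 8.04% and 7.19% of all tested genes, and voom called 0 in either direction. At the threshold used by the study (unadjusted p under 0.01 and over 1.5-fold), 2 members were lower (Tnfaip3 and Nfkbiz), against 1.24% of all tested genes. In 5 members (Tnfaip3, Nfkbiz, Bcl3, Tnip1 and Nfkbia) every LPS + G-CDs library was below every LPS library, against 15.0% of tested genes, and in 0 members was it above, against 12.9%. The median log2 fold change was -0.15 over the members and 0.017 over all tested genes. In bulk RNA, fewer responding cells and less RNA per cell cannot be told apart.

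Tnfaip3 was at 23.8, 20.2 and 15.6 FPKM in the LPS + G-CDs libraries, where the LPS libraries lay between 41.5 and 44.2 FPKM. The groups did not overlap, and the mean fell from 43.1 ± 1.4 to 19.9 ± 4.13 FPKM (SD, n = 3), an FPKM ratio of 0.461. The log2 fold change was -1.1 ± 0.18 (SE, 95% interval -1.51 to -0.69, adjusted p = 0.043, limma). Tnfaip3 is 7226 bases long, and in its length class the median tested gene differed from the LPS mean by 0.0, -0.18 and -0.38 on the log2 scale in the 3 libraries, whereas Tnfaip3 differed by -0.83, -1.06 and -1.41. With the length trend removed the log2 fold change was -0.95 (adjusted p = 0.0067), and with the replicate block the adjusted p was 0.018. The call held in 7 of 17 alternatives, with log2 fold changes from -1.26 to -0.94 and adjusted p from 0.0067 to 0.24. It was lost without any one of LPS replicates 1, 2 and 3 (adjusted p = 0.24, 0.23 and 0.17) and without LPS + G-CDs replicate 2 (adjusted p = 0.2) or replicate 3 (-0.94, adjusted p = 0.099). It was also lost with a pseudocount of 0.1 (adjusted p = 0.098), no filter on low values (0.089), TPM scaling (0.14), only the 6 libraries compared (0.078) and voom (0.087).

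Nfkbiz was at 112, 94.3 and 72.3 FPKM with LPS + G-CDs, below all 3 LPS libraries at 158 to 168 FPKM. The mean was 163 ± 5.0 FPKM with LPS and 92.9 ± 19.9 FPKM with LPS + G-CDs (SD, n = 3), a difference of -43.1%. The log2 fold change of -0.83 ± 0.17 (SE, 95% interval -1.22 to -0.44) had an adjusted p of 0.11 (limma). It passed without LPS + G-CDs replicate 1 (-0.97, adjusted p = 0.035), the library with the highest Nfkbiz of that group, and in none of the other 16 alternatives. Nfkbiz is 5018 bases long, and the median gene of its length class differed from LPS by -0.02, -0.05 and -0.09 in the 3 libraries, against -0.54, -0.78 and -1.16 for Nfkbiz.

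Bcl3 was at 16.7, 19.6 and 21.8 FPKM with LPS + G-CDs, all below the LPS libraries. Its log2 fold change was -0.44 ± 0.16 (SE, 95% interval -0.8 to -0.07), with an adjusted p of 0.3 (limma). The median gene of its length class was at -0.01, 0.16 and 0.34 in the 3 libraries and Bcl3 at -0.63, -0.41 and -0.26. Tnip1 was at 119, 121 and 135 FPKM, also below every LPS library, with a log2 fold change of -0.23 (95% interval -0.5 to 0.03, adjusted p = 0.34, limma). Over the alternatives the Tnip1 value ranged from -0.4 (TPM scaling) to -0.2, and the lowest adjusted p was 0.19. The median gene of its length class was at -0.02, 0.09 and 0.15 and Tnip1 at -0.3, -0.27 and -0.12.

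Nfkbia was at 526, 600 and 627 FPKM with LPS + G-CDs. Each value was below the lowest LPS library (635 FPKM), yet the mean differed by -9.3%, with a log2 fold change of -0.14 (95% interval -0.46 to 0.17, adjusted p = 0.54, limma). Over the alternatives it ranged from -0.43 to -0.07, and the lowest adjusted p was 0.16, with the length trend removed (-0.41). In its length class the median gene was at -0.02, 0.24 and 0.52 in the 3 libraries and Nfkbia at -0.29, -0.1 and -0.04.

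The remaining members gave intervals that included 0. Nfkbid was at 49, 50.3 and 53.4 FPKM, with a log2 fold change of -0.15 (95% interval -0.45 to 0.15). It was -0.35 with the length trend removed (adjusted p = 0.3) and -0.31 with TPM scaling (adjusted p = 0.39). Nfkbid stood at -0.2, -0.16 and -0.08 from the LPS mean in the 3 libraries, and the median gene of its length class at -0.02, 0.24 and 0.52. Nfkbib was at 56.8, 71.3 and 103 FPKM, a spread wide enough to surround the LPS libraries, and its log2 fold change was 0.14 (95% interval -0.35 to 0.64). These 3 Nfkbib values stood at -0.25, 0.08 and 0.6 on the log2 scale from the LPS mean, while the median gene of the same length class stood at -0.02, 0.24 and 0.52. The log2 fold change was 0.04 (95% interval -0.29 to 0.38) for Nfkbie, -0.02 (95% interval -0.34 to 0.29) for Tnip3 and 0.0 (95% interval -0.32 to 0.33) for Cyld. Tnip3 and Cyld share the longest length class, at 0.0, -0.33 and -0.64 in the 3 libraries, where Tnip3 was at -0.16, -0.06 and 0.14 and Cyld at 0.07, 0.03 and -0.09. With the length trend removed, the log2 fold change was 0.26 for Tnip3 (adjusted p = 0.56) and 0.33 for Cyld (adjusted p = 0.31). For Nfkbib, Nfkbie, Tnip3 and Cyld the sign changed in at least 1 alternative.

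**Figure D4:**
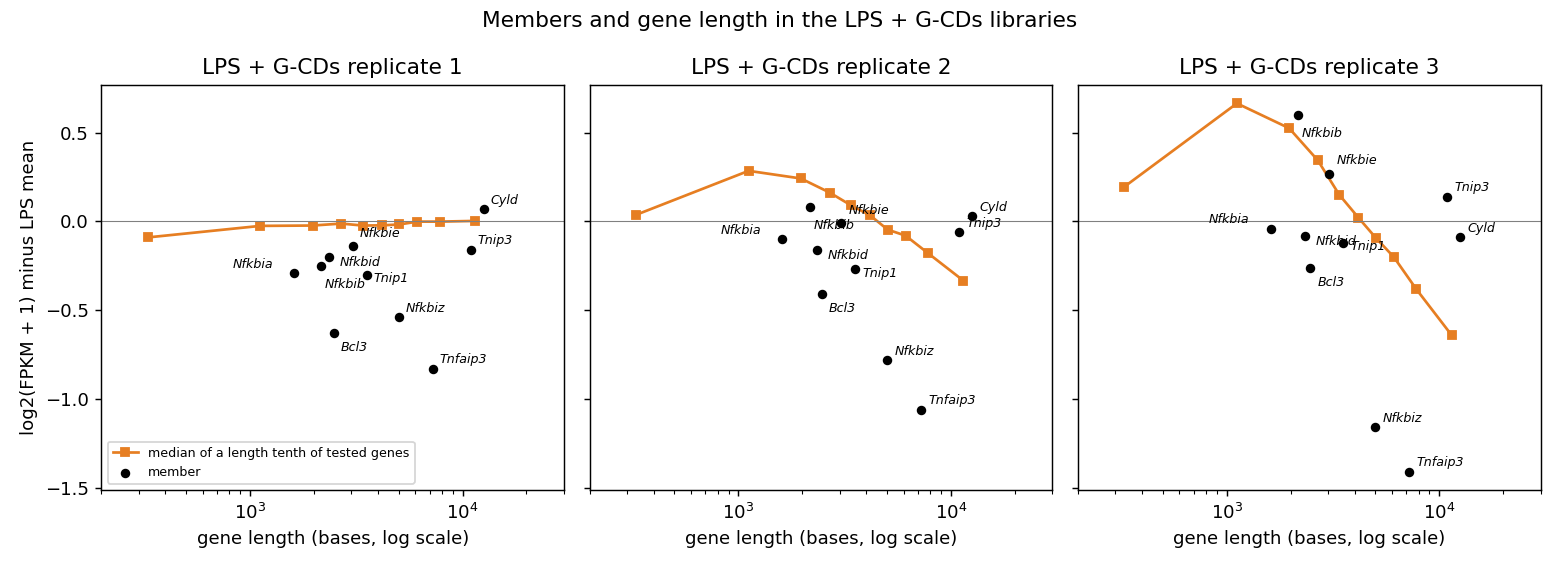
Log2(FPKM + 1) in each LPS + G-CDs library minus the LPS mean (y axis), against gene length in bases (x axis, log scale), for the 10 members (black) and for the medians of 10 equal length classes of the tested genes (orange line). The line is nearly flat in replicate 1 and, past the shortest genes, falls with length in replicates 2 and 3. Members lie on both sides of it in each panel, and Tnfaip3 is the lowest member in all 3.

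LPS + G-CDs libraries were also compared with control. Each group enters 2 of the 3 comparisons, so these values are not independent of those above. The same count resulted, with 9 members called higher and 0 lower (limma, adjusted p under 0.05), against 12.8% and 12.4% of all tested genes. At an unadjusted p under 0.05, 1 member was lower (Cyld), against 17.7% of all tested genes, and voom called 0 lower. The log2 fold change was 2.46 ± 0.18 (SE) for Tnfaip3, 4.42 ± 0.17 for Nfkbiz and 3.03 ± 0.14 for Nfkbia. Cyld was at 3.44, 3.31 and 2.97 FPKM, below every control library (-0.36, adjusted p = 0.1, limma), and passed with TPM scaling (-0.71, adjusted p = 0.023) and without control replicate 3 (-0.47, adjusted p = 0.042). With the length trend removed it was -0.25 (adjusted p = 0.22), and without control replicate 1 it was -0.23 (adjusted p = 0.24).

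Expressed as the share of the LPS-induced gain in FPKM that was present with LPS + G-CDs, the 9 induced members ranged from 42.3% to 117.6%. For Tnfaip3 the share was 52.1%, 43.2% and 31.7% in the 3 libraries and for Nfkbiz 67.9%, 56.9% and 43.1%. Bcl3 had a mean share of 68.1%, Tnip1 80.9%, Nfkbid 82.5% and Nfkbia 89.6%. The shares were 97.1% for Tnip3, 105.8% for Nfkbie and 117.6% for Nfkbib, and the last ranged from 79.3% to 166.9% between libraries.

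**Figure D5:**
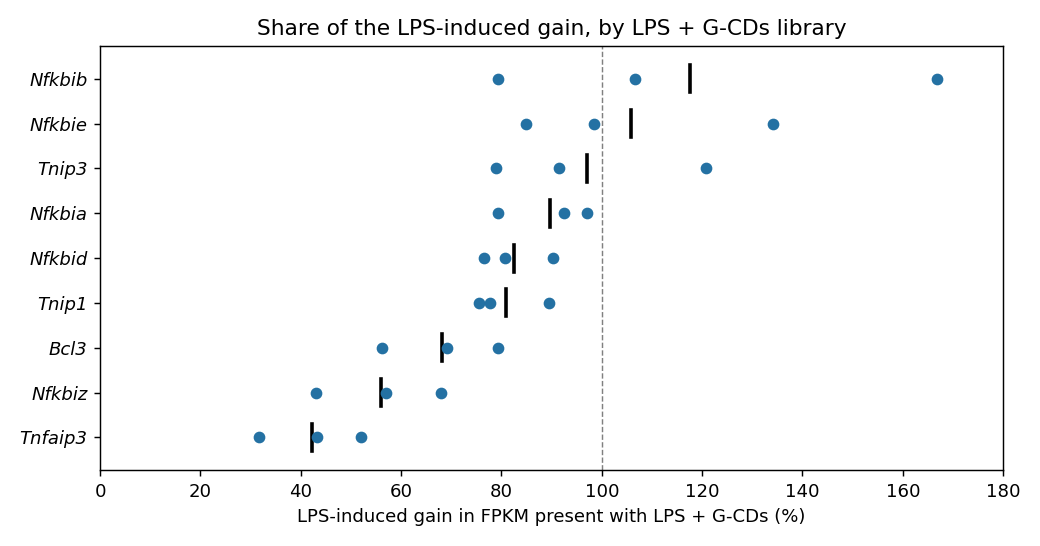
Share of the LPS-induced gain in FPKM (LPS mean minus control mean) present in each LPS + G-CDs library (points) and in their mean (black bars), for the 9 members raised by LPS; the dashed line marks 100%. Tnfaip3 and Nfkbiz lie lowest, at means of 42.3% and 56.0%, and Nfkbib is the most spread.

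Levels relative to Nfkbia in the same library were then compared, since a factor shared by all genes of a library cancels in such a ratio. A trend with gene length does not cancel, because the members differ in length. The log2 ratio of Tnfaip3 to Nfkbia was -3.83, -3.83 and -3.94 with LPS and -4.41, -4.82 and -5.24 with LPS + G-CDs, a difference of -0.96. The difference was -0.68 for Nfkbiz and -0.29 for Bcl3, and in these 3 genes every LPS + G-CDs library was below every LPS library. Of the other tested genes, 2.1% had ratios to Nfkbia that were lower without overlap and 38.5% had ratios that were higher without overlap. Each had p = 0.1 in a two-sided exact permutation test, which is the smallest p that 3 libraries against 3 allow, and 0.3 after adjustment over the 9 ratios. The ratio of Nfkbid to Nfkbia differed by 0.0 (exact p = 1.0). With the length trend removed, an alternative chosen after seeing the data, the differences were -0.54 for Tnfaip3, -0.38 for Nfkbiz and -0.21 for Bcl3 (exact p = 0.1 for each). For Nfkbie, Tnip3 and Cyld they went from 0.19, 0.12 and 0.15 to 0.33, 0.67 and 0.74 (exact p = 0.1 for each). After that removal 1.36% of the other tested genes were lower relative to Nfkbia without overlap and 67.1% were higher. When 1 library was left out, with the length trend kept, the differences ranged from -1.16 to -0.75 for Tnfaip3, from -0.9 to -0.47 for Nfkbiz and from -0.32 to -0.27 for Bcl3. They ranged from 0.12 (without LPS + G-CDs replicate 3) to 0.26 for Nfkbie, from 0.07 (without LPS replicate 3) to 0.16 for Tnip3 and from 0.04 (without LPS + G-CDs replicate 1) to 0.25 (without LPS + G-CDs replicate 3) for Cyld.

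The order of mean levels per gene length changed with treatment. In control it was Nfkbia, Tnip1, Nfkbid, Nfkbib, Tnip3, Cyld, Bcl3, Nfkbiz, Nfkbie and Tnfaip3, and from Tnip3 downwards each neighboring pair overlapped. With LPS it was Nfkbia, Nfkbiz, Tnip1, Nfkbib, Nfkbid, Tnfaip3, Bcl3, Tnip3, Nfkbie and Cyld, and no neighbors overlapped. With LPS + G-CDs, Tnip1 stood above Nfkbiz, Nfkbiz overlapped Nfkbib, and Tnfaip3 overlapped Bcl3. Nfkbia made up 42.5%, 54.9% and 58.7% of the summed FPKM of the members in control, LPS and LPS + G-CDs.

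The rest of the pathway was examined through 5 lists of 60 genes, of which 57 were tested. With LPS, 33 of these rose and 3 fell, where 15.8% of all tested genes rose and 15.6% fell. All 5 NF-κB subunit genes rose, Rel by 2.6, Nfkb1 by 2.57 and Nfkb2 by 2.47 on the log2 scale. Of 13 IκB kinase and upstream kinase genes, 3 rose (Ikbke, which encodes a non-canonical IκB kinase, by 3.21) and 1 fell (Tab1, -0.71). Among 11 ubiquitin ligase and adaptor genes, 3 rose (Traf1 by 3.74 and Birc3 by 2.46) and 1 fell (Rbck1, -0.48). Of 12 A20 partners and other brakes, 6 rose and 1 fell. They included Zc3h12a, which encodes the RNase Regnase and rose by 3.57, and Pdlim2, at -0.88. Of 18 inflammatory output genes listed, 16 passed the filter on low values, and all 16 rose, with a median log2 fold change of 6.92. Csf3, Cxcl2, Ccl5 and Il1b had control means of 0.107, 0.739, 0.413 and 0.0103 FPKM. Genes this low in control pass the filter only through the treated groups, so they could hardly be tested without a rise. The counts of 16 and 33 include such genes.

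With G-CDs, 4 of the 57 were called lower and 0 higher (limma, against 0.242% and 0.25% of all tested genes), all 4 of them among the inflammatory outputs. At an unadjusted p under 0.05, 14 were lower and 1 higher, against 8.04% and 7.19% of all tested genes, and voom called 0 in either direction. Ccl22, a chemokine, fell from a mean of 123 to 49.1 FPKM (log2 fold change -1.31 ± 0.12, adjusted p = 0.0036, limma). Nos2, the inducible nitric oxide synthase, fell from 105 to 49.5 FPKM (-1.1 ± 0.18, adjusted p = 0.046). Lcn2, which encodes an iron-siderophore binding protein, and Il1a, a cytokine gene, fell by 1.04 and 0.91 on the log2 scale (adjusted p = 0.023 for each). No NF-κB subunit, kinase, ligase or A20 partner was called, and at an unadjusted p under 0.05 there were 3 lower subunits, 2 lower kinases, 1 lower ligase and 3 lower brakes, and among the outputs 5 lower and 1 higher. The median log2 fold change was -0.34 over the subunits, -0.25 over the kinases, -0.07 over the ligases, -0.09 over the brakes and -0.16 over the outputs, against 0.017 over all tested genes.

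The genes whose pattern over the 9 libraries was most like that of a member are given as a description, since the 9 libraries fall into separate groups that set most of each correlation. For Tnfaip3 the closest was Rhbdf2 (Pearson r = 0.9986, n = 9), for Nfkbiz it was Nos2 (0.9991), and for Nfkbia it was Csf3 (0.9997). Nfkbib was closest to Cd14 (0.9979), Nfkbie to Tes (0.9934), Bcl3 to Ifi204 (0.9975), Nfkbid to Dusp2 (0.9953), Tnip1 to Slc31a2 (0.9991) and Tnip3 to Milr1 (0.9964). Cyld was closest to Cmtm4 (0.9881).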

How the data were processed

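RNA-seq of 9 RAW264.7 libraries (3 control, 3 LPS, 3 LPS + G-CDs) was analysed. The authors selected mRNA by poly-T capture, sequenced it on an Illumina NovaSeq instrument and deposited 1 FPKM value for each gene in each library, with coordinates and gene lengths. The submitters' processing notes name GRCm38 and mm10; the aligner and counter are not given in the sources used here. All 9 value columns were matched to samples by name. FPKM multiplied by gene length and by a library size solved from the smallest steps of each column gave whole reads for 100.0% of values within 0.05 reads.

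The 10 members and the gene lists were chosen with earlier results of these data known. Named genes were all members, up to 5 called genes per list with the largest changes, and the genes most correlated with each member. The 11585 genes that reached an FPKM of 1 in 3 or more libraries were transformed as log2(FPKM + 1), so fold changes of low genes are understated, and 1 model for the 3 groups was fitted by limma 3.58.1 (R 4.3.3), using lmFit and then eBayes with a trend. Tests were two-sided, and a call is a Benjamini-Hochberg adjusted p under 0.05. A value in a length class is a median over 1 of 10 equal classes of the tested genes, ordered by length. Ratios to Nfkbia were compared by exact permutation tests (scipy 1.17.1). As a count-based alternative, voom on the recovered reads, with the same solved library sizes, called 20 genes in LPS + G-CDs against LPS. Other alternatives changed the pseudocount (0.1), filter (none, or FPKM of at least 5), scaling (TPM, median-of-ratios, quantile), libraries fitted, trend, gene-length trend and replicate block, and left out each library in turn; the ratios with the gene-length trend removed were added after seeing the data. Promoters came from RefSeq (GRCm38.p6), and 9 of 10 members matched by symbol.

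The groups share replicate numbers, whose meaning the labels do not give. For control and LPS, the deviation of a library from its group mean correlated with that of its same-numbered partner at 0.103, 0.137 and 0.113. Each was above 0.1, the limit set for treating the numbers as pairs. The main model still held no replicate term, and the fit with the replicate block is given as an alternative. Those of LPS + G-CDs and LPS correlated at 0.095, 0.08 and 0.143, which did not meet that limit. Those of LPS + G-CDs and control correlated at 0.28, 0.057 and 0.653, also not all above it, and pairs with different numbers reached 0.504 and -0.671.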

Additional observations from a re-analysis of the deposited data

How the results depend on the processing

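Under all alternatives run, the 9 members raised by LPS kept direction and call, against control, in both LPS and LPS + G-CDs libraries. For Cyld, the number of members called lower in LPS against control went from 0 to 1 with TPM scaling, quantile normalization, the length trend removed and the replicate block, with a range of 0 to 1 when a library was left out; in LPS + G-CDs against control it was 1 with TPM scaling and 0 to 1 when a library was left out. In LPS + G-CDs against LPS, the number of members called lower was 0 rather than 1 with a pseudocount of 0.1, no filter, TPM scaling, only the 6 libraries compared and voom, 2 at the study's threshold, and 0 to 2 when a library was left out. The 57 genes called there became 25 with a pseudocount of 0.1, 37 with TPM scaling, 25 with only the 6 libraries, 20 with voom, 92 with the length trend removed, and between 11 and 256 when a library was left out (256 without LPS + G-CDs replicate 1). In LPS + G-CDs against control, 2927 genes became 1789 with only the 6 libraries and 1914 to 3245 when a library was left out.

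Of the member values in LPS + G-CDs against LPS, 143 of 169 kept direction and side of the threshold, and 15 reversed, all in genes that were not called. Nfkbib was -0.02 with TPM scaling and -0.08 with the length trend removed, and -0.08 to 0.34 when a library was left out. Nfkbie was -0.11 and -0.08 under these settings and -0.07 to 0.13 when a library was left out. Tnip3 was 0.26 with the length trend removed and -0.11 to 0.04 when a library was left out. Cyld was -0.12 with TPM scaling, -0.02 with median-of-ratios scaling, 0.33 with the length trend removed and -0.04 to 0.05 when a library was left out. The log2 ratio difference of Nfkbid to Nfkbia ranged from -0.05 to 0.03 when a library was left out and was 0.06 with the length trend removed, around 0.0, and that of Tnip1 went from -0.09 to 0.11 with the length trend removed, an alternative chosen after seeing the data. The cause was not tested. With the replicate block, Cyld in LPS against control was called (-0.36, adjusted p = 0.047), and no other member changed its call; 53 genes were called in LPS + G-CDs against LPS. TPM scaling moved the median over all tested genes, on the log2 scale, to -0.21 for LPS against control, -0.116 for LPS + G-CDs against LPS and -0.334 for LPS + G-CDs against control, from 0.016, 0.017 and 0.025, and 24.6% rather than 50.3% of calls with LPS were then higher, and 18.8% rather than 50.8% with LPS + G-CDs against control. The stricter filter left Cyld untested. With 3 libraries a group and adjustment over all tested genes, Nfkbiz and Bcl3 in LPS + G-CDs against LPS and Cyld in LPS and in LPS + G-CDs against control had 95% intervals that left out 0 and were still not called.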

Other observations

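NF-κB consensus matches in RefSeq promoters were also counted in genes grouped by their call with LPS, members included, and in the pathway lists. Of the genes called higher with LPS, 131 of 1360 with a promoter entry held a match (9.63%), against 80 of 1388 genes called lower (5.76%) and 272 of 5268 genes not called (5.16%). By list, matches were found in 5 of 14 inflammatory output genes (35.7%), 2 of 3 NF-κB subunit genes, 2 of 8 A20 partners and other brakes, 1 of 11 kinases and 1 of 10 ubiquitin ligase and adaptor genes. These shares are descriptions and were not tested.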
